A study of Mus musculus with 23 samples.

Results

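The genes described here are 32 members of the PP2A-type phosphatase machinery, picked by symbol from a fixed list and found in each library among 55573 counted genes. They comprise 4 catalytic subunits, 2 scaffold subunits, 15 B subunits, 2 regulatory subunits of PP4, 5 regulators of assembly and methylation, and 4 genes of the inhibitor pathways that act on B55 and B56. The rule uses no measured value, but the members were chosen with earlier results of these data known.

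PP2A is a serine/threonine phosphatase built from a scaffold, a catalytic subunit and an exchangeable B subunit. The B subunit decides where the enzyme goes and which proteins it acts on. The B55 class opposes mitotic kinases at mitotic exit and is held back by the Greatwall kinase through ENSA and ARPP19. The B56 class works at kinetochores and in the complex that controls β-catenin. SET binds PP2A and inhibits it, and is also a histone chaperone.

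The study asks how SET bears on the pluripotent state and on differentiation of mouse embryonic stem cells (ESCs). RNA was measured by QuantSeq, which sequences a tag near the 3′ end of each polyadenylated transcript, in 23 libraries that form 19 samples. R1 is a mouse ESC line, and its SET-/- derivatives KO1 and KO2 were compared with wild type (WT) in 2 separately titled sets. Set 1 held WT samples 1a and 1b, KO1 samples 1c and 1d and KO2 samples 1e and 1f. Set 2 held WT samples 2a and 2b, KO1 samples 2c and 2d and KO2 samples 2e and 2f. It also held cells given retinoic acid (RA), a differentiation signal for ESCs, for 4 d: 1 WT sample (2g) and 2 KO samples (2h and 2i), both titled KO1. KH2 is an ESC line for doxycycline-controlled transgenes and carried SETa-HA, with 2 samples without and 2 samples with 1 μg/mL doxycycline (Dox) for 24 h. R1 and KH2 cells were kept on mouse embryonic fibroblasts with serum and LIF. Each KO line carries a single label, and the sources used here do not say whether it is 1 clone or whether both sets used the same clones. The labels do not state separate cultures for the samples of a group, and p-values rest on a spread among samples that could be technical only.

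Assigned counts per sample were 806412 to 1445013 in set 1, 2833064 to 10217040 in untreated set 2, 3904924 to 5047363 after RA and 4848478 to 6472695 in KH2 cells. A floor of 3 counts equals 2.08 to 3.72 CPM (assigned counts scaled to a common library size) in set 1 and 0.294 to 1.06 CPM in untreated set 2, for counting error only. The 10 untreated set 2 libraries fell into sub-batches A and B of 5 libraries each along the first component of their within-group variation, which held 33.9% of it. No title names the sub-batches, and both held WT and KO libraries, but not in equal shares. WT sample 2b drew 7941952 counts from A and 2275088 from B, and WT sample 2a drew on both nearly evenly. KO samples 2d and 2e drew more counts from B, 2c was B alone and 2f was A alone. Genotype and sub-batch are thus partly mixed in the summed set 2 samples. The split was drawn from the spread of these same libraries. Tests within a sub-batch, or with sub-batch as a covariate, thus rest on a spread that the split narrowed. Their p-values can be too small and are not independent support. Summed CPM of 10 ESC markers (Pou5f1, Nanog, Esrrb and others), none at 0 in any sample, was 2888 to 4138 in R1 WT, 1616 to 2173 in untreated KO, 276.5 to 338.1 after RA and 4066 to 4716 in KH2 samples.

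Set, the targeted gene, was read first as a check of the labels. The set 1 values were 943 and 979 CPM for WT and 21.4, 20.02, 16.8 and 25.6 CPM for KO 1c to 1f. Levels in set 2 were 1199 and 1454 CPM (WT) and 513, 569, 394 and 273 CPM (KO 2c to 2f). After RA it was 580 CPM in WT and 288 and 194 CPM in KO. The KO samples lay below their WT samples in each setting, but set 2 KO samples kept many Set tags. The sources used here do not place the edit relative to the tagged 3′ end. In KH2 cells Set was 1021 and 964 CPM without Dox and 1267 and 1126 CPM with Dox (log2 difference 0.28, SE 0.10, edgeR adjusted p = 0.175), and they do not say whether the transgene's transcript yields a Set tag.

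In SET KO cells no catalytic or scaffold gene passed the test, and of 15 B subunits 1 rose and 3 fell. Of all tested genes 10.4% rose and 8.63% fell. With so few genes per role, these counts do not set the B subunits apart from the core enzyme. Over both sets Ppp2r2c, the B55γ subunit, rose 2.08-fold and Ppp2r5a, the B56α subunit, fell to 0.425 of WT. Ppp2r5c (B56γ) fell to 0.746 and Ppp2r2d (B55δ) to 0.715 of WT. All 32 members were tested, and calls were made at an adjusted p under 0.05 over all 11515 tested genes by edgeR's quasi-likelihood test with set as a covariate. The 1 member that rose is 3.12% of the list, against 10.4% of all tested genes, and the 3 members that fell are 9.38%, against 8.63%. The median log2 fold change was 0.02 over the members and -0.02 over all tested genes. The share that fell was thus near the background, and the share that rose was below it.

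Of the members called in KO over both sets, Ppp2r5a and Ppp2r2c had the largest differences, in opposite directions, and their upstream sequences are shown to place them side by side. Both come from the RefSeq promoter table for GRCm38.p6, which held 35 promoters for 27 of the 32 members. Each is the 250 bases before the annotated start, read 5′ to 3′ on the gene's strand. Capitals mark the GC box GGGCGG or its complement CCGCCC, the only searched motif found in either window.
Ppp2r5a, chr1:191397042-191397291, minus strand: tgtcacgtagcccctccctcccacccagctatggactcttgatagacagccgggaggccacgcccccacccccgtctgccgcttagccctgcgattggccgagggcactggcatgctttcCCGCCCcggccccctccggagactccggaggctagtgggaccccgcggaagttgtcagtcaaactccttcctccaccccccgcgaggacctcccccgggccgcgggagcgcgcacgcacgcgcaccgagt
Ppp2r2c, chr5:36868260-36868509, plus strand: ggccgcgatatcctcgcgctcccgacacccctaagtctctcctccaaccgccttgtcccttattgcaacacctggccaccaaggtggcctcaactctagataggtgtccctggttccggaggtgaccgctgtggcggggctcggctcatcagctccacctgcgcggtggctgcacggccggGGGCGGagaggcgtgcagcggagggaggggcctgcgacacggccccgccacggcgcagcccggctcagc
Both windows are rich in G and C, at 70.4% for Ppp2r5a and 69.6% for Ppp2r2c, and each holds 1 GC box. Searched on both strands, that box occurs in 32.7% of 32851 windows of the same length and place, and in 19 of the 35 member windows. The retinoic acid receptor half-site AGGTCA (14.0% of windows), the TCF/LEF core CTTTGAT (3.2%) and the p53 half-site (7.13%) have no match here, which says only that these letters are not in these windows. Ppp2r5a's gene model in the count files runs from 191351975 to 191403272 on chromosome 1 and so reaches farther upstream than this RefSeq start. Ppp2r2c's model starts at 36868513 on chromosome 5, next to the RefSeq start.

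Ppp2r5a encodes B56α, a B subunit that directs PP2A to kinetochores and to MYC. WT samples of set 1 had 163 and 142 CPM, while KO samples 1c to 1f had 48.2, 74.3, 52.9 and 48.7 CPM. The set 2 values were 62.8 and 76.9 CPM for WT and 26.3, 32.9, 31.3 and 42.7 CPM for KO 2c to 2f. Each KO sample of either line lay below both WT samples of its set. The log2 difference was -1.43 (SE 0.20, edgeR adjusted p = 0.00013) in set 1, -1.04 (SE 0.16, adjusted p = 0.000301) in set 2 and -1.24 (SE 0.14, adjusted p = 9.21e-07) over both. The level also differed between sets, with set 2 WT near set 1 KO.

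In set 2 the Ppp2r5a level differed by sub-batch. In A the WT libraries stood at 89.9 and 84.9 CPM and the KO libraries at 36.8, 32.7 and 42.5 CPM. In sub-batch B the WT libraries stood at 37.1 and 37.5 CPM and the KO libraries at 26.1, 29.3 and 30.4 CPM. WT libraries thus lay above KO libraries in both, but by far less in B. The log2 difference was -1.17 (SE 0.16, edgeR adjusted p = 0.000732) in A and -0.39 (SE 0.20, adjusted p = 0.189) in B, so the set 2 call is not made in B alone. The difference between sub-batches was 0.77 (SE 0.24) with an unadjusted p of 0.00341 and an edgeR adjusted p of 0.208, so it did not pass. No member passed this test, which was added after the library values were seen, and 0.533% of all tested genes did.

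Ppp2r2c encodes B55γ, a B55 subunit known chiefly from brain. Levels in set 1 were 32.3 and 42.2 CPM (WT) and 80.4, 93.6, 78.5 and 74.3 CPM (KO 1c to 1f). WT samples of set 2 had 47.5 and 46.4 CPM, while KO samples 2c to 2f had 111, 93.3, 93.8 and 72.8 CPM. All 8 KO samples lay above all 4 WT samples, across both sets and both lines. The log2 difference was 1.14 (SE 0.21, edgeR adjusted p = 0.00192) in set 1, 1.03 (SE 0.15, adjusted p = 0.000206) in set 2 and 1.06 (SE 0.13, adjusted p = 4.13e-06) over both.

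Within each sub-batch of set 2, Ppp2r2c was higher in every KO library than in the WT libraries. WT libraries stood at 43.9 and 45.4 CPM in A and at 48.1 and 42.6 CPM in B. KO libraries stood at 69.2, 62.5 and 72.5 CPM in A and at 110, 105 and 103 CPM in B. WT was alike in both sub-batches and KO was higher in B, the converse of Ppp2r5a, whose WT level moved and whose KO level moved less. The log2 difference was 0.64 (SE 0.16, edgeR adjusted p = 0.0332) in A and 1.21 (SE 0.14, adjusted p = 1.46e-10) in B, and their difference did not pass (adjusted p = 0.327).

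Ppp2r5c encodes B56γ, a B subunit known to act on p53. The set 1 values were 267 and 256 CPM for WT and 163, 181, 199 and 187 CPM for KO. Levels in set 2 were 239 and 248 CPM (WT) and 186, 176, 197 and 203 CPM (KO). The groups did not overlap in either set, and the WT level was alike in both sets. The log2 difference over both sets was -0.42 (SE 0.09, edgeR adjusted p = 0.00183). It passed in set 1 (-0.52, SE 0.15, adjusted p = 0.0345) but not in set 2 (-0.32, SE 0.10, adjusted p = 0.0585), and the set 1 call was lost without 1a, 1b, 1c, 1e or 1f in turn (adjusted p 0.0616 to 0.203) and with DESeq2 (0.0656). The set 2 difference passed by edgeR in sub-batch B alone (-0.38, SE 0.10, adjusted p = 0.00374), with sub-batch as a covariate (0.0112) and without 2f (0.00709), but not in A (-0.24, SE 0.13, adjusted p = 0.376).

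Ppp2r2d encodes B55δ, the B55 subunit tied most closely to mitotic exit. WT samples of set 1 had 145 and 198 CPM, while KO samples 1c to 1f had 144, 152, 115 and 98.0 CPM. The set 2 values were 126 and 164 CPM for WT and 77.5, 99.7, 88.1 and 134 CPM for KO 2c to 2f. The groups overlapped in both sets. Within set 2 the libraries of A (150 and 174 CPM in WT, 140, 147 and 134 CPM in KO) lay above those of B (100 and 105 CPM in WT, 76.7, 71.3 and 67.0 CPM in KO). The log2 difference over both sets was -0.48 (SE 0.14, edgeR adjusted p = 0.0202), and it no longer passed without 1b (adjusted p = 0.0815), 2b (0.117) or 2e (0.05), or with each library as its own sample (adjusted p = 0.200). In set 2 alone (-0.51, SE 0.17, edgeR adjusted p = 0.0675) it passed in sub-batch B (-0.54, SE 0.13, adjusted p = 0.00165), with sub-batch as a covariate (0.00952), without 2f (2.11e-05) and without the low-count filter (0.000801), but not in A (-0.20, SE 0.13, adjusted p = 0.482). KO libraries lay below WT libraries within each sub-batch. Fitted by library with sub-batch as a covariate, the set 2 difference was -0.36 (SE 0.09), smaller than the -0.51 from summed samples.

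**Figure D1:**
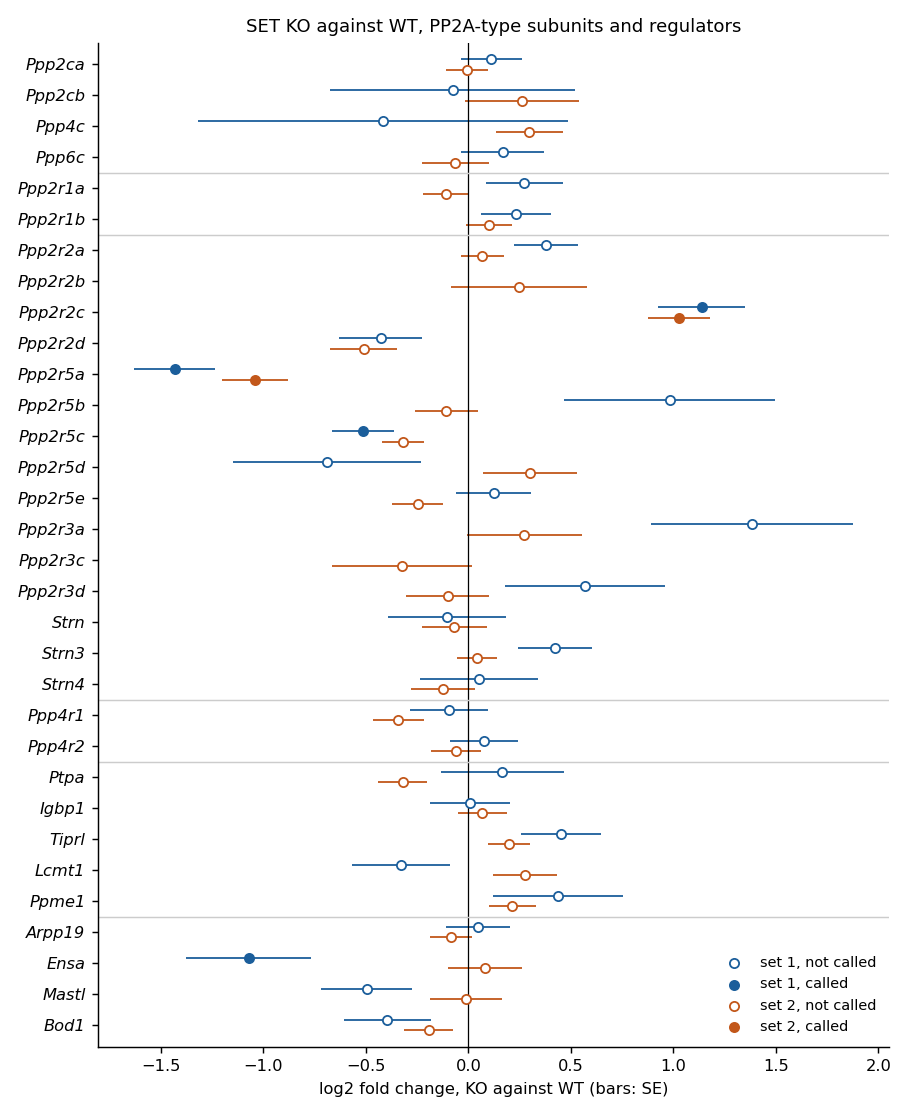
Log2 fold change of SET KO against WT for each member in set 1 (blue) and set 2 (orange), with SE as bars and called genes filled; grey lines part the roles, from catalytic subunits at the top to the inhibitor pathway at the bottom. Ppp2r2c (1.14 and 1.03) and Ppp2r5a (-1.43 and -1.04) are filled in both sets, and Ppp2r5c and Ensa in set 1 alone.

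**Figure D2:**
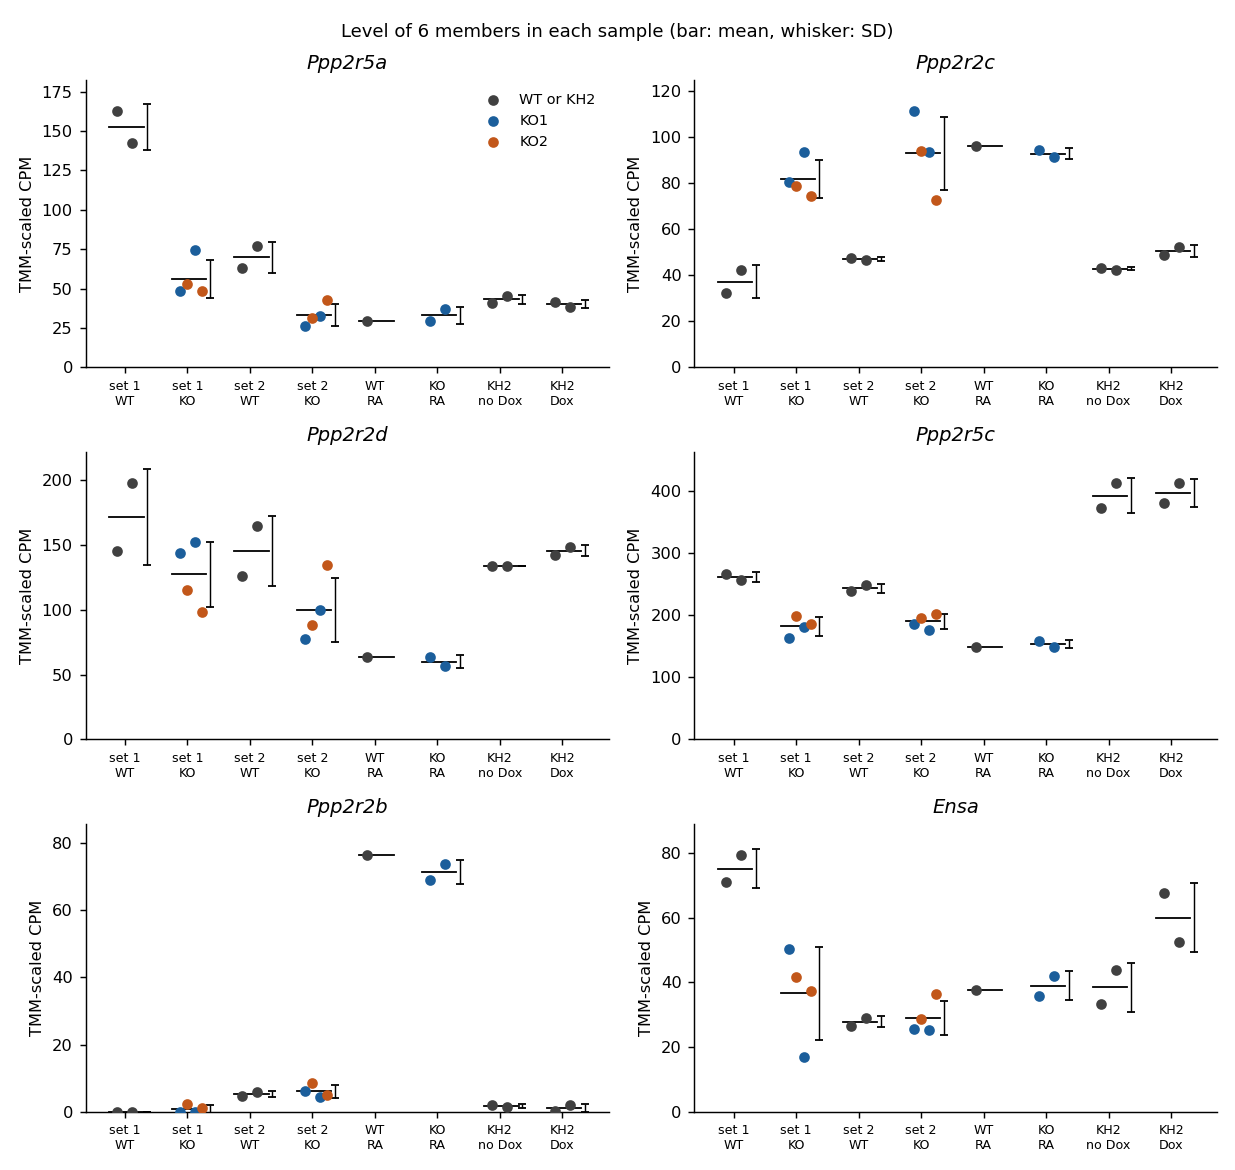
TMM-scaled CPM of 6 members in each of the 19 samples, with the mean as a line and the SD as a whisker where a group has 2 or more samples. KO samples of Ppp2r5a lie below, and those of Ppp2r2c above, the WT samples of their set, and the RA samples lie within the range of the untreated set 2 KO samples for both, which for Ppp2r2c sums sub-batches on either side of the RA level.

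**Figure D3:**
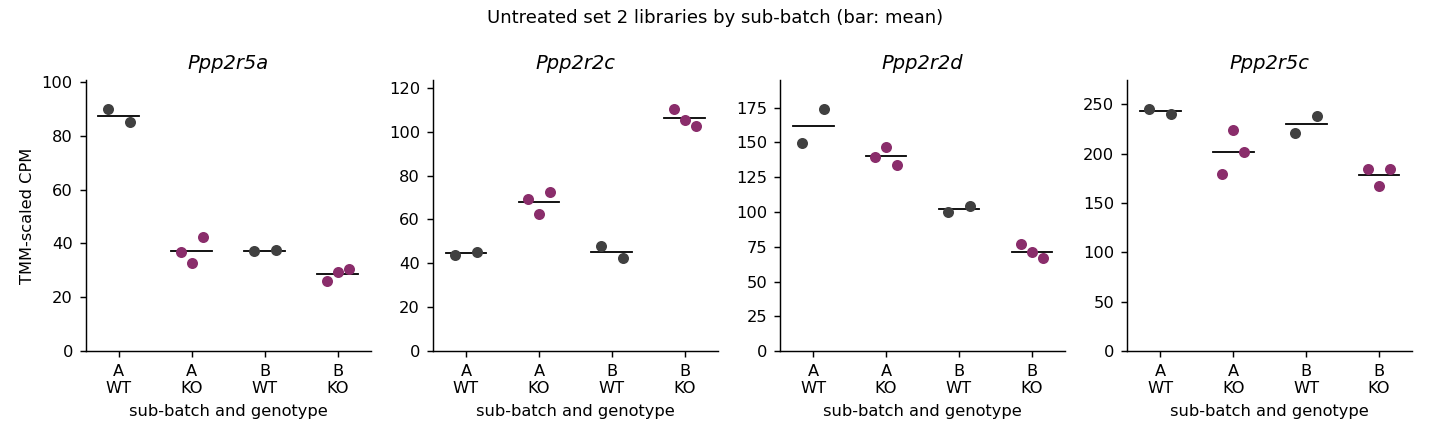
TMM-scaled CPM of 4 B subunits in the 10 untreated set 2 libraries, split by sub-batch and genotype, with the mean as a line. Ppp2r5a in WT is 89.9 and 84.9 CPM in A but 37.1 and 37.5 CPM in B, and Ppp2r2c is higher in KO than in WT in both.

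Markers of other cell states moved with these calls. The summed level of 10 endoderm markers was 479.6 to 564.1 CPM in set 1 WT and 1097 to 1537 CPM in set 1 KO, and 587.8 to 603.8 CPM in set 2 WT and 952.3 to 1149 CPM in set 2 KO, with none at 0. The summed level of 15 fibroblast (feeder) markers was 34.73 to 58.11 CPM in set 1 WT and 251.9 to 418.9 CPM in set 1 KO, and 249.1 to 307.4 CPM in set 2 WT and 356.3 to 469.2 CPM in set 2 KO, with up to 5 markers at 0 in a sample. Over both sets 8 of 10 endoderm markers and 5 of 12 tested feeder markers rose, and 8 of 10 ESC markers fell. Their part in the B subunit results was not tested. In bulk RNA, fewer cells of a type and less RNA per cell cannot be told apart.

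The catalytic subunits did not pass the test in either set. Ppp2ca, the main PP2A catalytic gene, stood at 283 and 274 CPM in set 1 WT and at 294, 273, 308 and 327 CPM in set 1 KO. Levels in set 2 were 294 and 323 CPM (WT) and 305, 317, 269 and 306 CPM (KO). WT and KO overlapped, with a log2 difference over both sets of 0.04 (SE 0.09, edgeR adjusted p = 0.816). Ppp6c, the PP6 catalytic gene, had 0.02 (SE 0.13) and Ppp4c, the PP4 catalytic gene, -0.03 (SE 0.45).

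Ppp2cb, the second PP2A catalytic gene, gave few tags. It stood at 28.2 and 21.5 CPM in set 1 WT and at 33.2, 4.52, 28.03 and 31.2 CPM in set 1 KO. WT samples of set 2 had 7.80 and 13.7 CPM, while KO samples had 10.6, 11.3, 11.8 and 20.2 CPM. Sample 1d (KO1) was far below the rest of set 1, as it was for Ppp4c, at 9.69 CPM against 42.8 to 122 CPM in the other 5 samples. That sample had 7 Ppp2cb counts against 422 Ppp2ca counts.

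Some members share sequence with other genes. An antisense gene, 9430098F02Rik, covers the last 500 bases of Ppp2ca's annotated transcript, and the file headers show no strand option. Under the default options a read over both genes is counted for neither. The antisense gene had 0 counts in every library, which this counting could itself produce, so it does not show that gene to be silent. Ppp2ca had 274 to 2379 counts per library, from reads outside the shared bases. Its level thus leaves out tags at that end. Of the members, 10 share exon bases with another gene, and in 7 more than 10% of the 50-base words in the last 500 bases recur in another gene's transcripts. Besides Ppp2ca (100%) these were Ppp2r3c (66.7%), Ppp4r2 (28.4%), Ppp2r1b (23.7%), Ppp2r5d (16.0%), Mastl (14.6%) and Lcmt1 (10.7%). No such word was shared for Ppp2r5a, Ppp2r2c, Ppp2r5c, Ppp2r2d or Ensa.

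The scaffold genes did not pass. Ppp2r1a, the main scaffold gene, had a log2 difference over both sets of 0.05 (SE 0.12), and Ppp2r1b, the second scaffold gene, 0.14 (SE 0.10). Neither passed within set 1 or set 2. Scaffold levels in untreated R1 samples were 110 to 163 CPM for Ppp2r1a and 111 to 173 CPM for Ppp2r1b.

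The other 11 B subunits did not pass over both sets, and their log2 differences lay between -0.14 and 0.55. Ppp2r2a, the broadly expressed B55α, had 0.20 (SE 0.10, edgeR adjusted p = 0.176), and Ppp2r5e, B56ε, had -0.10 (SE 0.11). Strn3, a striatin that joins PP2A to kinases in the STRIPAK complex, had 0.20 (SE 0.11), while its relatives Strn and Strn4 had -0.09 (SE 0.15) and -0.07 (SE 0.16). Ppp2r3a, of the PR72 class, had the widest of these differences at 0.55 (SE 0.25, adjusted p = 0.133), from 3.31 to 7.14 CPM in the 4 WT samples and 5.96 to 11.8 CPM in the 8 KO samples.

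Ppp2r5b, the B56β gene, differed far more between sets than between genotypes. It had 3.23 and 4.13 CPM in the WT samples and 8.58, 5.81, 8.01 and 7.49 CPM in KO of set 1, where 3 counts equal 2.08 to 3.72 CPM. The set 2 values were 36.7 and 34.0 CPM for WT and 31.4, 31.4, 33.5 and 30.1 CPM for KO. KO lay above WT in set 1 and below it in set 2, and neither passed (edgeR adjusted p = 0.247 and 0.735). The difference of the KO effect between sets was -1.11 (SE 0.47, adjusted p = 0.408).

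PP4's regulatory subunits and the regulators of assembly did not pass over both sets as reported. Ppp4r1 and Ppp4r2 had log2 differences of -0.26 (SE 0.11, edgeR adjusted p = 0.0964) and -0.01 (SE 0.10). Tiprl, which binds free catalytic subunits, had 0.28 (SE 0.10, adjusted p = 0.0635), and Igbp1 (α4), which protects them, had 0.03 (SE 0.11). Tiprl passed under 6 other settings: with DESeq2 (0.0459), without 1d (0.0395) or 2b (0.0447), and in the 3 fits by library (edgeR adjusted p 0.0298 to 0.0415). Ptpa, the PP2A activator and prolyl isomerase, had -0.15 (SE 0.17). Lcmt1, which methylates the catalytic subunit's tail, had 0.03 (SE 0.16), and Ppme1, which removes that methyl group, had 0.29 (SE 0.17).

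In the inhibitor pathways Ensa passed in set 1 alone. It had 71.0 and 79.4 CPM in the WT samples and 50.4, 16.8, 41.6 and 37.5 CPM in KO samples 1c to 1f. Levels in set 2 were 26.7 and 29.1 CPM (WT) and 25.6, 25.2, 28.7 and 36.4 CPM (KO). KO lay below WT in set 1 and overlapped it in set 2. The log2 difference was -1.07 (SE 0.31, edgeR adjusted p = 0.0375) in set 1, with the lowest sample again 1d, and 0.08 (SE 0.18, adjusted p = 0.837) in set 2. Without 1a, 1b, 1e or 1f in turn it no longer passed (adjusted p 0.0671 to 0.185). Arpp19, Ensa's relative, had -0.04 (SE 0.09) over both sets, Mastl, the Greatwall kinase, -0.23 (SE 0.15), and Bod1, a B56 inhibitor at kinetochores, -0.29 (SE 0.12, adjusted p = 0.0922).

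Counted by set, the calls were few. In set 1, 30 members were tested, without the sparse Ppp2r2b and Ppp2r3c: 1 rose (3.33%, against 7.19% of all tested genes) and 3 fell (against 5.1%). In set 2, 1 of 32 rose (3.12%, against 5.64%) and 1 fell (3.12%, against 3.55%). The difference of the KO effect between sets passed for no member by edgeR, against 0.828% of all tested genes called. At the looser unadjusted p under 0.05 there were 2 members (Ensa and Ppp2r5b), and the share of all genes there was not counted. Ensa had the smallest p of these, with 1.15 (SE 0.35, edgeR adjusted p = 0.162).

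With RA, 13 members passed in WT and 15 in KO, and 9 and 8 of these were B subunits. In WT, 7 members rose (21.9%, against 24.8% of all tested genes) and 6 fell (18.8%, against 22.5%). In KO, set against the mean of untreated KO1 and KO2, 8 rose (against 28.3%) and 7 fell (21.9%, against 26.8%). The members' shares were thus near those of the whole transcriptome in both genotypes. Medians were 0.03 and 0.01 over members and -0.03 and -0.01 over all tested genes. The members' effects were smaller in size, with a median absolute log2 fold change of 0.359 against 0.808 in WT. In KO it was 0.297 against 0.661. Among the 15 B subunits, 6 rose and 3 fell in WT and 6 rose and 2 fell in KO. RA in WT rests on 1 sample, whose spread is assumed to be that of the other set 2 groups, and both RA comparisons and the KO comparison in set 2 share untreated samples.

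Ppp2r2b, the B55β gene known from neurons, rose most. It stood at 4.55 and 5.84 CPM in untreated WT and at 6.21, 4.51, 8.66 and 4.96 CPM in untreated KO. After RA it stood at 76.4 CPM in WT and at 68.9 and 73.8 CPM in KO. The treated samples lay far above all others and no difference by genotype passed (log2 -0.14, SE 0.22, edgeR adjusted p = 0.977). The RA effect was 3.78 (SE 0.26, adjusted p = 2.98e-12) in WT and 3.44 (SE 0.19, adjusted p = 1.32e-14) in KO. In set 1 and in KH2 cells the gene lay at 0 to 2.40 CPM.

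With samples summed over sub-batches, Ppp2r2c and Ppp2r5a passed for RA in WT and not in KO, and the difference itself was tested. Ppp2r2c stood at 96.2 CPM in WT after RA, against 47.5 and 46.4 CPM before, and at 94.4 and 91.2 CPM in KO after RA, against 72.8 to 111 CPM before. The untreated KO samples lay on both sides of the treated samples. The RA effect was 1.00 (SE 0.18, edgeR adjusted p = 4.21e-05) in WT and -0.10 (SE 0.12, adjusted p = 0.504) in KO, and the difference between them passed (-1.11, SE 0.22, adjusted p = 0.0105).

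The small RA effect on Ppp2r2c in KO averages sub-batches that lay on opposite sides of the treated level. By library, the untreated KO values of sub-batch A (62.5 to 72.5 CPM) lay below the KO RA libraries (90.8 and 87.1 CPM), and those of B (103 to 110 CPM) lay above them. Against untreated sub-batch A alone Ppp2r2c rose with RA in KO (0.30, SE 0.13, edgeR adjusted p = 0.0412). Against B alone it fell (-0.30, SE 0.11, adjusted p = 0.0201). The direction of its RA effect in KO therefore depends on the untreated libraries used.

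Ppp2r5a stood at 29.6 CPM in WT after RA, against 62.8 and 76.9 CPM before. In KO it stood at 29.3 and 36.8 CPM after RA, against 26.3 to 42.7 CPM before. The RA samples lay within the range of the untreated KO samples. The RA effect was -1.29 (SE 0.24, edgeR adjusted p = 6.77e-05) in WT and -0.11 (SE 0.17, adjusted p = 0.602) in KO, with a difference of 1.18 (SE 0.29, adjusted p = 0.0421).

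These differences by genotype rest on the same untreated WT samples as the KO comparison, so they are not separate evidence of it. With untreated libraries of sub-batch A alone both passed (Ppp2r2c adjusted p = 0.0465, Ppp2r5a adjusted p = 0.00177). With those of sub-batch B alone Ppp2r2c passed (edgeR adjusted p = 2.74e-05) and Ppp2r5a did not (0.50, SE 0.30, adjusted p = 0.489), nor did its RA effect in WT (-0.43, SE 0.25, adjusted p = 0.146). Neither passed with each library as its own sample (adjusted p = 0.347 and 0.849) or without 2b, 2h or 2i (0.0635 to 0.263). Ppp2r5a was also lost without 2a, 2c or 2e (adjusted p 0.0523 to 0.0774) and with DESeq2 (0.123). Over all members 1 of 32 rose and 1 fell in this test (3.12% each), against 0.348% and 0.744% of all tested genes.

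For the other B subunits no difference in RA effect by genotype passed. Ppp2r5b (B56β) stood at 36.7 and 34.0 CPM in untreated WT and 62.0 CPM after RA, and at 30.1 to 33.5 CPM in untreated KO and 76.5 and 80.2 CPM after RA. Ppp2r2d (B55δ) stood at 126 and 164 CPM in untreated WT and 63.3 CPM after RA, and at 77.5 to 134 CPM in untreated KO and 63.4 and 56.4 CPM after RA. Treated samples did not overlap untreated ones for either gene. The RA effects were 0.79 (SE 0.19, edgeR adjusted p = 0.00139) in WT and 1.20 (SE 0.13, adjusted p = 1.77e-08) in KO for Ppp2r5b. For Ppp2r2d they were -1.24 (SE 0.23, adjusted p = 8.43e-05) in WT and -0.83 (SE 0.16, adjusted p = 0.000105) in KO, and the WT call was lost with each library as its own sample (adjusted p = 0.0756).

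Ppp2r5c, the B56γ gene, fell from 239 and 248 CPM to 149 CPM in WT, and from 176 to 203 CPM to 158 and 149 CPM in KO. Its RA effect was -0.75 in WT (SE 0.15, edgeR adjusted p = 0.00013) and -0.42 in KO (SE 0.10, adjusted p = 0.00109). Ppp2r3a of the PR72 class rose by 1.21 (SE 0.35) and 0.88 (SE 0.25), to 14.1 to 16.96 CPM, and Strn by 0.73 (SE 0.20) and 0.71 (SE 0.14). Strn3 passed in WT (0.48, SE 0.13, adjusted p = 0.00435) and in KO only against untreated sub-batch B among the settings tried (0.22, SE 0.08, adjusted p = 0.0216, against 0.21, SE 0.10, adjusted p = 0.066 as reported). Ppp2r5e (0.34, SE 0.12) and Ppp2r3d (0.71, SE 0.18) passed in KO, with 0.16 (SE 0.17) and 0.59 (SE 0.26) in WT. Ppp2r3d did pass in WT without 2c, 2e or 2f and with untreated sub-batch A or B alone (edgeR adjusted p 0.0152 to 0.0478). By edgeR, Strn3 was lost without 2a (adjusted p = 0.0543), and in KO Ppp2r3a (0.0627), Ppp2r3d (0.0555) and Ppp2r5e (0.277) were lost without 2h, Ppp2r5e also without 2d (0.0854).

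**Figure D4:**
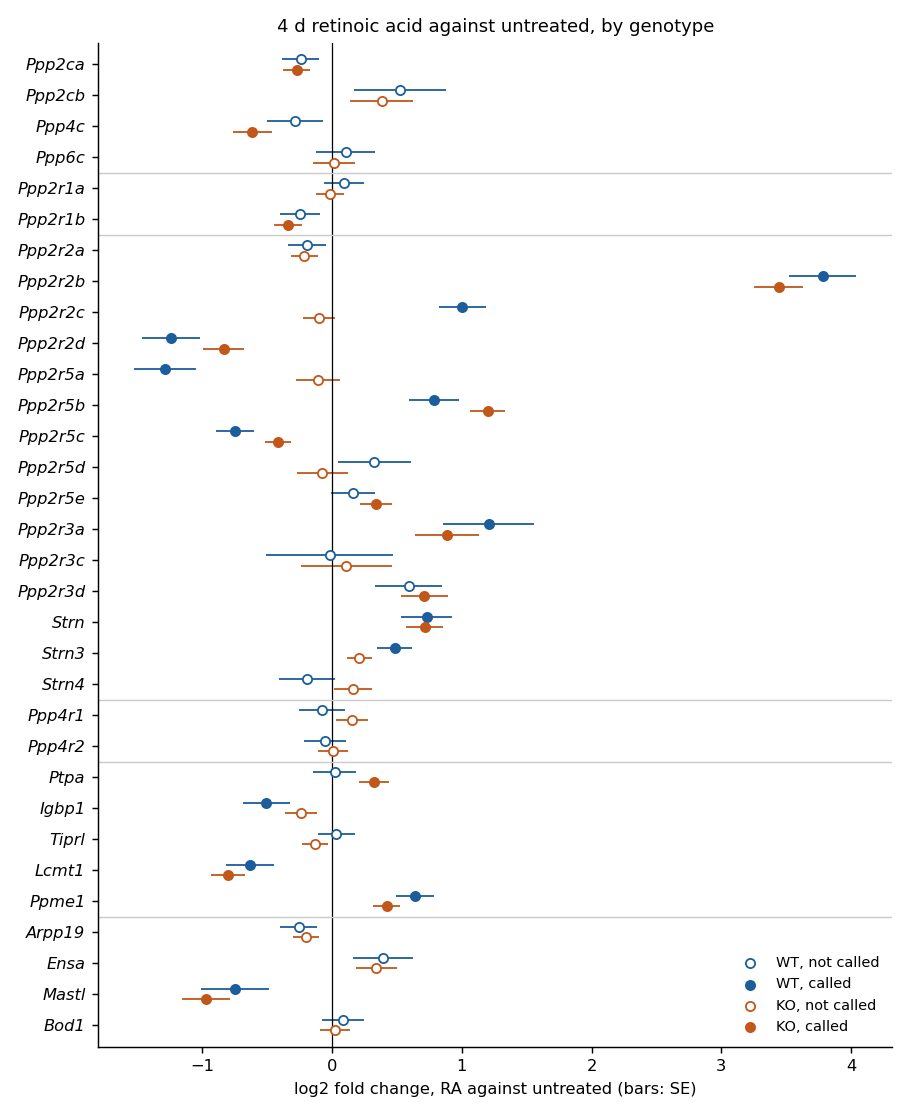
Log2 fold change of 4 d RA against untreated cells for each member in WT (blue, 1 treated sample) and KO (orange, 2 treated samples), with SE as bars and called genes filled. Ppp2r2b stands far to the right in both genotypes, at 3.78 and 3.44, and Ppp2r2c and Ppp2r5a are filled in WT and lie near 0 in KO, where for Ppp2r2c the sub-batches gave 0.30 (A) and -0.30 (B).

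The enzymes that set the methylation of the catalytic subunit moved in opposite directions with RA. Lcmt1, the methyltransferase, stood at 125 and 118 CPM in untreated WT and 79.9 CPM after RA, and at 174, 152, 143 and 101 CPM in untreated KO and 92.0 and 82.4 CPM after RA. Ppme1, the methylesterase, stood at 153 and 166 CPM in untreated WT and 256 CPM after RA, and at 190, 194, 188 and 149 CPM in untreated KO and 270 and 251 CPM after RA. All RA samples lay below all untreated samples for Lcmt1 and above them for Ppme1. The RA effects were -0.63 (SE 0.19, edgeR adjusted p = 0.00637) and -0.80 (SE 0.13, adjusted p = 6.98e-06) for Lcmt1, in WT and KO. They were 0.64 (SE 0.15, adjusted p = 0.000714) and 0.42 (SE 0.10, adjusted p = 0.0011) for Ppme1.

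Mastl, the Greatwall kinase, fell with RA in both genotypes. It stood at 40.3 and 31.5 CPM in untreated WT and 21.5 CPM after RA, and at 39.1, 34.9, 28.01 and 35.1 CPM in untreated KO and 19.9 and 17.2 CPM after RA. Treated and untreated samples did not overlap. The RA effect was -0.75 (SE 0.26, edgeR adjusted p = 0.0207) in WT and -0.97 (SE 0.19, adjusted p = 7.12e-05) in KO, and the WT call was lost without 2a (adjusted p = 0.12). Its targets Arpp19 (-0.26, SE 0.14 and -0.20, SE 0.10) and Ensa (0.39, SE 0.23 and 0.34, SE 0.16) did not pass, nor did Bod1 (0.08, SE 0.16 and 0.02, SE 0.12). Under other settings Ensa passed in KO without 2f, with KO1 as the only control and with untreated sub-batch B (edgeR adjusted p 0.0262 to 0.0367), and Arpp19 in WT with untreated sub-batch A (0.0398).

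Some further members passed for RA in 1 genotype. Igbp1 passed in WT (-0.51, SE 0.18, edgeR adjusted p = 0.0223, against -0.24, SE 0.12, adjusted p = 0.0961). In KO, Ppp2ca (-0.27, SE 0.10), Ppp4c (-0.62, SE 0.15), Ppp2r1b (-0.34, SE 0.11) and Ptpa (0.32, SE 0.12) passed. With untreated sub-batch A alone Ptpa came to 0.03 (SE 0.11, edgeR adjusted p = 0.839), and with sub-batch B alone Ppp2ca came to -0.15 (SE 0.09, adjusted p = 0.138). In WT, Ppp2ca passed with untreated sub-batch A alone (-0.30, SE 0.12, edgeR adjusted p = 0.034). Without 1 sample in turn, calls were lost for Igbp1 (2b, adjusted p = 0.0889), Ppp2ca (2h, 0.0877; 2i, 0.172), Ppp2r1b (2i, 0.153) and Ptpa (2c, 0.0948; 2h, 0.182; 2i, 0.0537) by edgeR. DESeq2 did not call Igbp1 (adjusted p = 0.0724) or Mastl (0.0688) in WT, or Ppp2r5e (0.0623) or Ptpa (0.0539) in KO. For none of these did the RA effect differ by genotype at an adjusted p under 0.05.

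Between KO and WT after RA, 0 of 32 members passed by edgeR, 0 had an unadjusted p under 0.05, and 0.396% of all tested genes were called. The log2 differences lay between -0.26 and 0.32. With 1 WT and 2 KO samples this does not show that the levels are equal. Marker levels shifted with RA at the same time: summed feeder marker CPM was 5480 to 6221 in RA samples with at most 1 of 15 at 0, summed endoderm marker CPM was 1191 to 2420, and the 14 retinoic acid and neural markers summed to 616.3 to 747.6 CPM against 168.5 to 204.1 CPM in untreated set 2. Their part in the members' RA effects was not tested.

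In KH2 SETa-HA cells 1 of 31 tested members passed for Dox against no Dox; a control with Dox and no transgene was not analysed here. Ensa stood at 33.2 and 43.8 CPM without Dox and at 67.6 and 52.5 CPM with Dox. The groups did not overlap, and the log2 difference was 0.65 (SE 0.17, edgeR adjusted p = 0.0402). The 1 member that rose is 3.23% of those tested, against 0.896% of all genes that rose and 0.904% that fell. At an unadjusted p under 0.05 there were 7 members, and the share of all genes at that threshold was not counted. DESeq2's Wald test gave an adjusted p of 0.0905 for Ensa, and the call was lost without either sample lacking Dox (adjusted p = 0.314 and 0.222) or without Dox replicate 1 (0.327).

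The B subunits called in KO did not pass with Dox. Ppp2r5a stood at 41.1 and 45.1 CPM without Dox and at 41.8 and 38.5 CPM with Dox. Ppp2r2c stood at 43.2 and 42.3 CPM without Dox and at 48.7 and 52.3 CPM with Dox. The groups overlapped for the former and not for the latter. Their log2 differences were -0.09 (SE 0.16, edgeR adjusted p = 0.839) and 0.25 (SE 0.15, adjusted p = 0.476), and those of Ppp2r5c and Ppp2r2d were 0.02 (SE 0.11) and 0.13 (SE 0.12).

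Just short of the threshold with Dox lay Ppp2r5d, the B56δ gene (0.80, SE 0.22, edgeR adjusted p = 0.0513), and Ppme1 (-0.44, SE 0.12, adjusted p = 0.0509). Ppp2r5d stood at 12.6 and 13.9 CPM without and 21.8 and 24.3 CPM with Dox, and Ppme1 at 258 and 235 CPM without and 197 and 165 CPM with Dox. Neither pair of groups overlapped. With 2 samples per group unchanged genes often separate too, so this is no support for a change, here or for Ensa and Ppp2r2c with Dox. Summed feeder marker CPM was 928.9 and 875.3 without Dox and 620.0 and 512.1 with Dox, and its part in these values was not tested.

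Genes around the PP2A machinery were counted from lists of partners, which were chosen with earlier results of these data known. Of 7 genes for SET and other acidic or protein PP2A inhibitors, 3 fell in KO over both sets, against 8.63% of all tested genes. They were Set (-3.46, SE 0.67), Anp32a (-0.59, SE 0.10, edgeR adjusted p = 0.000178) and Cip2a (-0.41, SE 0.14, adjusted p = 0.0445). Set is the targeted gene, so its fall was fixed by the design, and 3 of 7 overstates the share for the other inhibitors. Its log2 difference was -5.50 in set 1 and -1.56 in set 2, so -3.46 describes neither set. The difference between sets was widest for Set among the 7, at 3.94. In that test 1 of the 7 passed, upward, against 0.828% of all tested genes. Set's both-set call was lost when counts were summed to 1 sample per line and set (adjusted p = 0.184). After RA 5 of the 7 fell in each genotype (22.5% of all tested genes in WT and 26.8% in KO), among them Anp32b (-1.02, SE 0.15 in WT and -0.95, SE 0.10 in KO), and 1 rose in KO (against 28.3%), Fam122a (2.04, SE 0.50), which was named after its value was seen.

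Of 9 further PP4 and PP6 subunits, 2 rose in KO over both sets, where 10.4% of all tested genes rose. Ppp4r4 had a log2 difference of 2.22 (SE 0.37, edgeR adjusted p = 0.000258), from 3.65 ± 2.83 CPM (SD, n = 2) in WT to 24.5 ± 2.76 CPM (SD, n = 4) in KO of set 1. In set 2 it went from 2.49 ± 0.157 CPM (SD, n = 2) to 9.51 ± 5.95 CPM (SD, n = 4). KO sample 2f, of sub-batch A alone, had 2.65 CPM, near the WT samples (2.60 and 2.38 CPM). KO sample 2c, of sub-batch B alone, had 17.2 CPM, and 2d and 2e, of both, had 8.83 and 9.40 CPM. Ankrd52, an ankyrin-repeat subunit of PP6, had 1.13 (SE 0.33, adjusted p = 0.0182) at levels of 0 to 7.56 CPM. With RA 2 of the 9 rose and 1 fell in WT (against 24.8% and 22.5% of all tested genes), and 4 rose and 3 fell in KO (against 28.3% and 26.8%), and Ankrd44 rose in both (3.20, SE 0.29 and 3.13, SE 0.22).

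STRIPAK partners and other phosphatases did not pass in KO over both sets, at 0 of 10 and 0 of 5 tested by edgeR. At an unadjusted p under 0.05 there were 3 and 0, and the share of all genes there was not counted. With RA 3 of 11 STRIPAK partners rose in WT (against 24.8% of all tested genes) and 5 of 11 in KO (against 28.3%), with none falling. Among them were Cttnbp2nl (2.18, SE 0.19 and 1.76, SE 0.14) and Sike1 (0.96, SE 0.18 and 0.68, SE 0.13). Of 7 other catalytic subunits of the family 2 rose and 1 fell in each genotype (against 24.8% and 22.5% in WT and 28.3% and 26.8% in KO), with Ppp3ca, a calcineurin catalytic gene, at 1.63 (SE 0.14) and 1.46 (SE 0.10).

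Of 14 Wnt, mitotic and shugoshin genes on which PP2A acts or which recruit it, 4 fell and none rose in KO over both sets, against 8.63% and 10.4% of all tested genes. Csnk1a1, a kinase of the β-catenin destruction complex, had -0.45 (SE 0.10, edgeR adjusted p = 0.00166), and Sgo1, the shugoshin that brings B56 to centromeres, had -0.49 (SE 0.11, adjusted p = 0.00255). Bub1b, the BUBR1 checkpoint gene that binds B56, had -0.46 (SE 0.12), and Cdca2, a mitotic phosphatase anchor, -0.38 (SE 0.10). With RA 8 of the 14 fell and 2 rose in WT (against 22.5% and 24.8%), and 6 fell and 4 rose in KO (against 26.8% and 28.3%). Ccnb1 fell by 1.51 (SE 0.15) and 1.34 (SE 0.11). With Dox none of the genes in these 5 lists passed by edgeR. At an unadjusted p under 0.05 there were 2, 1, 2, 2 and 5 genes. The order is inhibitors, STRIPAK, PP4 and PP6, other phosphatases and this list. The share of all genes at that threshold was not counted.

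Across all samples the machinery varied unevenly. Ppp2ca, counted without the tags in its shared end, kept to 245 to 327 CPM in all 19 samples, and Arpp19 to 208 to 293 CPM. KH2 cells differed from R1 in level for some members, in separate libraries and a separate line that cannot be told apart: Ppp2r5c was 373 to 414 CPM in KH2 and 163 to 267 CPM in untreated R1, and Ppp4r2 was 50.2 to 59.9 CPM against 103 to 150 CPM. Between the R1 sets, Tiprl was 52.1 to 84.7 CPM in set 1 and 205 to 269 CPM in untreated set 2, and Strn3 126 to 218 CPM against 383 to 443 CPM. The set, its depth and its sequencing cannot be told apart in these levels, and the tests of genotype compare samples within a set or carry the set as a covariate.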

How the data were processed

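The deposited values are raw whole-number counts. Per the file headers they come from featureCounts 1.6.0 with the Ensembl 97 annotation of GRCm38, under default options, so multi-mapping reads and reads over several genes are not counted. The submitters' processing notes name STAR 2.5.4b and Subread 2.0.0. Libraries sharing a title code were summed, leaving 19 samples. The titles number those libraries as separate replicates, and whether they are repeat runs or separate cultures is unknown, so fits by library were an alternative. CPM was scaled by TMM in edgeR 4.0.16 (R 4.3.3, limma 3.58.1). Tests were edgeR quasi-likelihood F tests over all genes passing filterByExpr, with robust dispersions and Benjamini-Hochberg adjustment at 0.05. DESeq2 1.42.0 was an alternative. RA effects came from 1 fit of set 2 group means, KH2 samples from their own fit. Each fit was run on simulated counts with independent samples and no sub-batches. That run does not bear on the sub-batches or on samples that differ only technically. Replicate numbers showed no clear pairing of samples. Correlations of same-numbered deviations were 0.0446, -0.146 and -0.0876 in set 1. They were -0.265 to 0.224 in untreated set 2 and 0.0355 in KH2 cells, where pairing is not settled as absent. Pairs of libraries of a group differed by more than sampling noise, with a chi-square per gene of at least 1.83. All members are described; from each related list the called genes with the smallest adjusted p are named, up to 4 for KO over both sets and up to 2 for other comparisons. The members and lists were chosen with earlier results of these data known. Sub-batch tests against RA and between sub-batches were added after the data were seen. Tables and figures used Python 3.11.15, pandas 2.3.3 and matplotlib 3.10.9.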

Additional observations from a re-analysis of the deposited data

Results flagged for a closer look

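In groups of 4 KO samples, 64 member-by-set groups were searched for a sample standing apart from the others by Dixon's criterion, and 7 did, where chance gives about 1 in 20. In set 1 KO, sample 1d was highest for Ppp2r2a (432 CPM, others 341 to 354) and for Lcmt1 (67.8 CPM, others 40.7 to 41.8). Sample 1f was lowest for Ppp2r1a (125 CPM, others 160 to 163), and 1e was highest for Ppp4r1 (60.9 CPM, others 54.7 to 55.6). In set 2 KO, sample 2f was highest for Ppp2cb (20.2 CPM, others 10.6 to 11.8) and lowest for Ppme1 (149 CPM, others 188 to 194) and Bod1 (73.8 CPM, others 86.6 to 89.2). Sample 2f consists of a sub-batch A library alone.

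The RA effect differed between genotypes by edgeR's test of the difference itself for Ppp2r2c (log2 -1.11 in KO against WT) and Ppp2r5a (1.18). Both rest on 1 WT sample after RA and on the untreated samples of the KO comparison. Neither passed with each library as its own sample. Ppp2r5a also did not pass with DESeq2 or with untreated sub-batch B alone.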

How the results depend on the processing

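Of 124 recounts of called members under other settings, 102 stayed within 1.5 times the reported count. Of 608 refits of single called genes, 62 lost the call and 0 changed sign. Leaving out 1 sample in turn gave 2 to 4 called members for KO in set 1, 2 to 8 in set 2 (8 without 2f), 0 to 2 for the RA by genotype difference and 0 to 1 for Dox. In set 2, sub-batch as a covariate gave 5 and sub-batch B alone 5. Without the low-count filter the difference between sets gave 1 (Ensa) and Dox 2. The RA by genotype difference gave 1 with DESeq2, 0 with each library as its own sample and 1 with untreated sub-batch B alone, and Dox gave 0 with DESeq2. Replicate numbers showed no clear pairing of samples. With them as a replicate block KO over both sets gave 4 called members, set 1 3, and Dox 4. The causes were not tested.

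Counts over all genes moved more. KO over both sets called 2194, and 1426 from sums by line within a set. Set 1 called 1200, and 570 without 1a and 776 without 1e. Set 2 called 1165, and from 195 (without 2b) to 2335 (without 2f), 759 with each library as its own sample, 454 with the block added and 434 in sub-batch A. The difference between sets called 99, 171 without the filter, 43 with the block and as few as 22 (without 1a). KO after RA called 58, 94 without the filter, 15 without 2i, 98 without 2f and 8 by library. The RA by genotype difference called 160, 98 with DESeq2, 284 without the filter, 27 without 2b or 2h, 388 without 2f, 2 by library, and 336 and 380 with sub-batch A or B alone. Dox called 229, 127 with DESeq2, 6 without KH2 replicate 2 lacking Dox and 724 with the block. Sub-batch settings were chosen after seeing the data, from the spread of these same libraries, so their counts and p-values rest on a narrowed spread. In set 1, 3 counts equal 2.08 to 3.72 CPM, which limits sparse members such as Ppp2r2b (0 to 2.40 CPM). Without the low-count filter Ensa was also called for KO over both sets (-0.48, edgeR adjusted p = 0.0216).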
